A study of Rattus norvegicus with 9 samples.

Results

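Pain-sensing neurons of the dorsal root ganglion (DRG) carry receptors for ATP, acid and heat, and 4 such genes, P2rx3, Asic1, Asic3 and Trpv1, were followed here in a rat model of painful diabetic neuropathy. Mrgprx3, a receptor gene of another family, was followed with them and is not known as an ATP, acid or heat receptor. The members are all probe sets that the array's annotation assigns to 1 of these 5 symbols alone. These are 10 probe sets of 5 genes, out of 15866 non-control probe sets and 10411 genes with a symbol of their own. P2rx3 and Trpv1 have 2 and 3 probe sets, Asic1 has 3, and Asic3 and Mrgprx3 have 1 each. A probe set shared by Trpv1 and Trpv4 (1369370_s_at) was not counted as a member, and its deposited signal lay between 5.4 and 13.2 units.

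Sprague-Dawley rats were sampled in 3 groups. The first received streptozotocin (STZ), which destroys pancreatic beta cells and so induces diabetes, followed by FK1706, an immunophilin ligand. The second was given STZ and vehicle, and the third was normal rats given vehicle. The sources used here give neither the dose of FK1706 nor the age of the rats. Ganglia of lumbar levels L4 to L6 were collected 1 day after dosing for 1, 2 or 3 weeks had ended, so the vehicle-treated groups were dosed for as long as the FK1706 group. Each of the 9 arrays holds equal amounts of RNA from 5 rats, which leaves 1 pool per group and week. Standard deviations (SD) below are over 3 pools of a group, 1 from each week, and so include change over the weeks.

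P2rx3 encodes an ATP-gated cation channel of small-diameter nociceptive neurons, where it forms channels alone or together with the P2rx2 subunit. Asic1 and Asic3 encode sodium channels opened by protons, and Asic3 is abundant in sensory neurons that supply muscle, heart and skin. Trpv1 encodes the capsaicin receptor, a cation channel opened by noxious heat and by acid, which inflammatory signals sensitize through kinases. Mrgprx3 belongs to the Mas-related receptors, a family of G protein-coupled receptors with many members in small sensory neurons. Unlike the other 4 products, it is no ion channel.

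Across probe sets, the normalized arrays correlated with r between 0.969 and 0.981. The deposited signal had no common scale, with trimmed means of 360 to 532 units, and all log2 levels below are after quantile normalization. All 9 general sensory neuron markers and all 8 markers of small nociceptive neurons found on the array lay above the filter on low values, a log2 level of 7.36. The filter passed 9520 of 15866 probe sets. All 5 fibroblast, 6 satellite glia and 6 Schwann cell markers on the array also lay above it. These counts alone therefore do not single out sensory neurons. The mean log2 of the nociceptive markers was 10.72 to 10.75 in STZ FK1706 arrays and 10.66 to 10.79 in STZ vehicle arrays. It was 10.67 to 10.80 in normal arrays, so these ranges overlapped. The mean of the general markers was 11.838 to 11.919 with FK1706 and 11.856 to 11.934 in STZ vehicle arrays. In normal arrays it was lower without overlap, at 11.776 to 11.836. Of 10 tested probe sets for the general markers, 6 were higher and 4 lower in STZ vehicle than in normal pools, and 0 passed. Skeletal muscle genes varied far more. The summed normalized signal of the 9 muscle markers on the array, of which 8 lay above the filter, was 2466 to 4286 units with FK1706, 2454 to 4660 in STZ vehicle pools and 3134 to 6915 in normal pools. The highest muscle value belonged to the normal pool of week 2. Connective tissue genes were lower in STZ vehicle than in normal pools. Of 7 probe sets for the 5 fibroblast markers, 3 passed as lower in STZ vehicle than in normal pools. The summed fibroblast signal was 21586 to 26285 units with FK1706, 19431 to 24456 in STZ vehicle pools and 24158 to 33024 in normal pools. Of 3 tested probe sets for the 4 cartilage markers, 1 passed as lower, and Acan and Col9a1 lay below the filter. The summed cartilage signal was 995 to 1262 units with FK1706, 879 to 1257 in STZ vehicle pools and 1576 to 2015 in normal pools. All 8 tested probe sets of Schwann cell markers were lower in STZ vehicle than in normal pools, and 0 passed. In such pooled tissue, fewer cells of a type and less RNA per cell cannot be told apart.

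No receptor probe set passed an adjusted p of 0.05 between the groups. Of the 10 members, 8 lay above the filter and were tested with limma among 9520 probe sets. None of the 8 passed for STZ vehicle against normal, FK1706 against STZ vehicle or FK1706 against normal. At an unadjusted p of 0.05 the counts were 0, 0 and 1, beside 8.70%, 3.37% and 8.16% of all tested probe sets. Over all tested probe sets the share called was 0.0630% (6 probe sets) for STZ vehicle against normal and 0.00% for both FK1706 comparisons. The 95% intervals of all 8 lay within 1.5-fold in all 3 comparisons. They ran from -0.33 to 0.43 on the log2 scale for STZ vehicle against normal, from -0.34 to 0.47 for FK1706 against STZ vehicle and from -0.30 to 0.57 for FK1706 against normal. The median absolute difference of the 8 was 0.066, 0.061 and 0.066 in these comparisons, beside 0.097, 0.075 and 0.096 over all tested probe sets. Group means had no common order, since the highest mean was in the FK1706 group for 3 members, in the STZ vehicle group for 3 and in the normal group for 2.

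**Figure D1:**
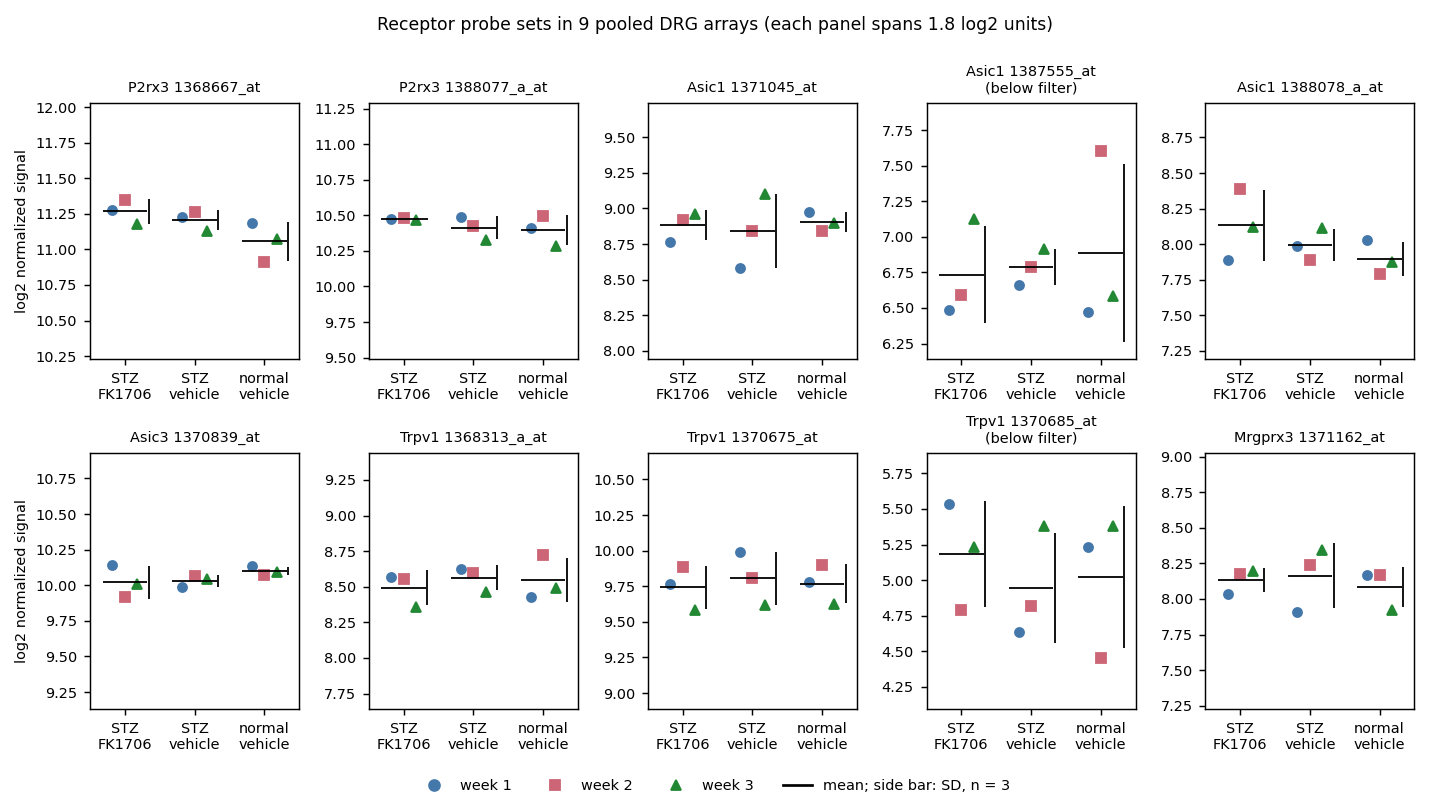
Log2 normalized signal of the 10 receptor probe sets (y axis) in the 3 groups (x axis), with 1 symbol per array and week, the group mean as a line and the SD (n = 3) as a side bar. Every panel spans the same number of log2 units. The groups overlap in most panels, the first P2rx3 probe set is lowest in the week 2 normal pool at 10.91, and the values for Asic1 1387555_at and Trpv1 1370685_at, both below the filter, scatter most.

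P2rx3 had its highest mean normalized level in FK1706-treated STZ rats on both of its probe sets, by margins that did not pass. On the deposited scale FK1706 minus STZ vehicle was -0.02 and -0.01 on these probe sets. Probe set 1368667_at had log2 levels of 11.28, 11.35 and 11.18 in the STZ FK1706 pools of weeks 1, 2 and 3. It had 11.23, 11.27 and 11.13 in the STZ vehicle pools and 11.19, 10.91 and 11.07 in the normal pools. The FK1706 values overlapped both other groups, and the week 2 normal pool was the lowest of the 9. Group means were 11.27 ± 0.086 with FK1706, 11.21 ± 0.071 with STZ vehicle and 11.06 ± 0.14 in normal rats (SD, n = 3 each).

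This P2rx3 probe set was the one member with the same direction in each week of every comparison. STZ FK1706 minus normal was 0.09, 0.43 and 0.10 in weeks 1, 2 and 3. Its fitted difference was 0.21 (SE 0.081, 95% interval 0.03 to 0.39, limma p 0.0259, adjusted p 0.551). It was the 1 member under an unadjusted p of 0.05 in that comparison. STZ vehicle minus normal was 0.04, 0.35 and 0.06 by week, with a fit of 0.15 (SE 0.081, adjusted p 0.610). FK1706 minus STZ vehicle was 0.05, 0.08 and 0.05 by week, with a fit of 0.06 (adjusted p 0.999). In each comparison 2 of the 8 members kept 1 direction through all weeks, up or down, beside 30.6% of all tested probe sets for STZ vehicle against normal, 23.8% for FK1706 against STZ vehicle and 27.8% for FK1706 against normal. The members' share was near the background.

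Both differences from normal rested largely on 1 array. Without the normal pool of week 2, in which the muscle genes were highest, FK1706 minus normal was 0.10 (limma adjusted p 0.807) and STZ vehicle minus normal was 0.04 (adjusted p 0.932). Centred on the general sensory neuron markers, whose mean log2 was lower in every normal pool than in any STZ pool, they were 0.15 and 0.06. That mean was 11.838 to 11.919 in FK1706 pools, 11.856 to 11.934 in STZ vehicle pools and 11.776 to 11.836 in normal pools. That centring was chosen after the data had been seen. The part of muscle RNA in the low P2rx3 value was not tested.

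The second P2rx3 probe set, 1388077_a_at, did not repeat the week 2 gap. Its name marks it as matching several transcripts of the gene. It had log2 levels of 10.47, 10.48 and 10.47 in the FK1706 pools, 10.49, 10.43 and 10.32 in the STZ vehicle pools and 10.41, 10.49 and 10.28 in the normal pools. The normal pool of week 2, lowest on the first probe set, was the highest here. FK1706 minus normal was 0.08 (SE 0.075, limma adjusted p 0.808), FK1706 minus STZ vehicle 0.06 (adjusted p 0.999) and STZ vehicle minus normal 0.02 (adjusted p 0.970). Across the 9 arrays both P2rx3 probe sets correlated with a Pearson r of 0.24, given as a description.

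**Figure D2:**
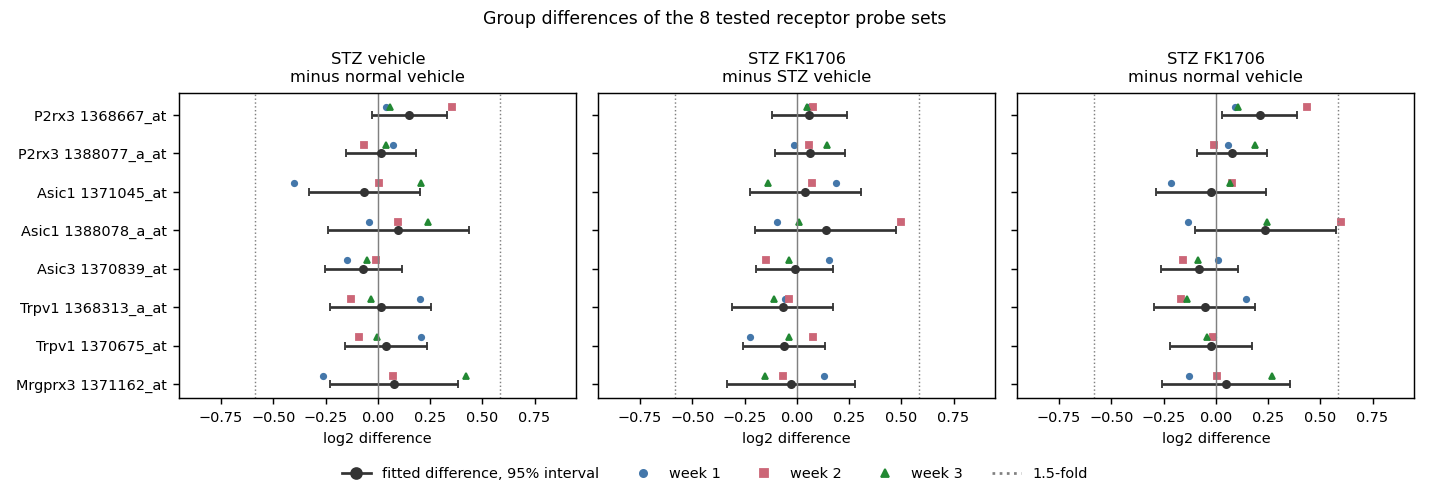
Log2 difference (x axis) of the 8 tested receptor probe sets (y axis) in the 3 comparisons, with the fitted value and its 95% interval in black and the 3 weekly differences as coloured symbols. Dotted lines mark 1.5-fold. All intervals lie between those lines, and only P2rx3 1368667_at in STZ FK1706 minus normal has an interval that leaves out 0.

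Asic3, a proton-gated channel subunit, was slightly lower in STZ vehicle rats than in normal rats without overlap. Its probe set 1370839_at had 10.14, 9.91 and 10.01 in the FK1706 pools of weeks 1 to 3, 9.99, 10.06 and 10.04 in the STZ vehicle pools and 10.13, 10.07 and 10.09 in the normal pools. The 3 STZ vehicle values lay just below the 3 normal ones, while the FK1706 values ran from below to above both groups. On the deposited scale the STZ vehicle and normal values overlapped, at 9.77 to 10.26 and 9.92 to 10.43. Among the 8 members it was the 1 whose groups did not overlap downward, beside 6.62% of all tested probe sets, and 0 did so upward, beside 6.13%. No member separated FK1706 from STZ vehicle pools (background 3.30% higher and 3.52% lower) or FK1706 from normal pools (5.89% higher and 5.97% lower). The fitted Asic3 difference was -0.07 for STZ vehicle minus normal (SE 0.083, 95% interval -0.25 to 0.11, limma adjusted p 0.838), with weekly values of -0.15, -0.01 and -0.05. It ran from -0.12 without the STZ vehicle pool of week 2 to -0.0078 without that of week 1. FK1706 minus STZ vehicle was -0.01 (adjusted p 0.999). FK1706 minus normal was -0.08 (adjusted p 0.829) and ran from -0.14 without the FK1706 pool of week 1 to -0.024 without that of week 2. The fibroblast and cartilage markers, given above, were also lower in STZ vehicle pools, and their part in the Asic3 values was not tested.

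Asic1, the other acid-gated channel gene, gave 3 probe sets that did not move together, with Pearson r from -0.26 to 0.37 between them over the 9 arrays. Probe set 1371045_at had 8.77, 8.92 and 8.96 with FK1706, 8.58, 8.84 and 9.10 with STZ vehicle and 8.98, 8.84 and 8.90 in normal rats. The STZ vehicle pools held both the lowest and the highest of the 9 values, in weeks 1 and 3. The difference of STZ vehicle from normal changed sign over the weeks, at -0.40, 0.00 and 0.20, with a fit of -0.06 (SE 0.12, limma adjusted p 0.903). The change per week was 0.30 log2 units larger in STZ vehicle than in normal pools (SE 0.13, limma p 0.0474, adjusted p 0.999). Of the 8 members it was the only one under an unadjusted p of 0.05 in that comparison of slopes, beside 4.14% of all tested probe sets.

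Probe set 1388078_a_at of Asic1 had 7.89, 8.39 and 8.12 with FK1706, 7.99, 7.89 and 8.11 with STZ vehicle and 8.03, 7.79 and 7.87 in normal rats. The FK1706 pool of week 2 stood above all others. FK1706 minus normal was 0.24 (SE 0.15, limma adjusted p 0.689), the largest fitted group difference of any tested member, and was 0.06 without that pool. It ran up to 0.42 when another array or a week was left out. FK1706 minus STZ vehicle was 0.14 (adjusted p 0.999), with 0.50 in week 2 against -0.09 and 0.01 in weeks 1 and 3. The value for STZ vehicle minus normal was 0.10 (adjusted p 0.879). The remaining Asic1 probe set, 1387555_at, lay below the filter. Its deposited signal was 192.5 units in the week 2 normal pool and 70.1 to 106.6 units in the 8 others, and neither other Asic1 probe set was high in that pool. This was also the pool with the most muscle signal, whose part in the value was not tested.

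Trpv1, the heat and capsaicin receptor gene, differed more between weeks than between groups on its probe set 1370675_at, and passed in neither test. This probe set had 9.77, 9.88 and 9.58 in the FK1706 pools of weeks 1, 2 and 3, 9.99, 9.81 and 9.62 in the STZ vehicle pools and 9.78, 9.90 and 9.62 in the normal pools. In every group the week 3 pool was the lowest. Group differences were -0.02 for FK1706 minus normal (limma adjusted p 0.959), -0.06 for FK1706 minus STZ vehicle (adjusted p 0.999) and 0.04 for STZ vehicle minus normal (adjusted p 0.925). Probe set 1368313_a_at had 8.57, 8.56 and 8.35 with FK1706, 8.63, 8.60 and 8.46 with STZ vehicle and 8.43, 8.72 and 8.49 in normal rats. Its values with FK1706 were below those with STZ vehicle in each week, by 0.06, 0.04 and 0.11, a fit of -0.07 (adjusted p 0.999). Trpv1 1370685_at lay below the filter, with deposited signals of 3.5 to 26.5 units.

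Averaged over the groups, Trpv1 1370675_at reached 9.85 ± 0.12 in week 1 and 9.86 ± 0.049 in week 2, against 9.61 ± 0.023 in week 3 (SD, n = 3 each). Week 3 minus week 2 was -0.25 (SE 0.089, limma p 0.0161, adjusted p 0.401) and week 3 minus week 1 was -0.24 (p 0.0221, adjusted p 0.313). No member passed either contrast, beside 0.0105% and 0.0210% of all tested probe sets, and this was the 1 member under an unadjusted p of 0.05 in both, beside 10.2% and 12.8%. The 3 pools of week 3 all lay below the 6 earlier ones. Of the 8 members this was the 1 with such a gap, beside 3.38% of all tested probe sets, and 0 members had the opposite gap, beside 3.21%. The F test over the weeks had p 0.0277 and adjusted p 0.403, so the difference between weeks did not pass. Trpv1 1368313_a_at had weekly means of 8.54, 8.62 and 8.44, and its week 3 minus week 2 of -0.19 did not pass either (adjusted p 0.570). Both probe sets correlated with a Pearson r of 0.78 over the 9 arrays. The third, 1370685_at, went the other way, with r of -0.71 and -0.78 to these probe sets. Its week 3 minus week 2 was 0.64 (limma without the filter, p 0.0258), at signals below the filter. The small nociceptive neuron markers were also lowest in week 3 in both vehicle groups. Their mean log2 in weeks 1, 2 and 3 was 10.73, 10.72 and 10.75 with FK1706, 10.75, 10.79 and 10.66 with STZ vehicle and 10.74, 10.80 and 10.67 in normal pools. Their part in the week 3 values of Trpv1 was not tested. Before normalization the week 3 arrays also had the lowest trimmed means, at 360 with FK1706, 365 with STZ vehicle and 385 in normal pools. Those of weeks 1 and 2 were 407 to 532 units. Length of dosing and array signal cannot be told apart here.

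The other members showed no common course. In the F test over weeks 1, 2 and 3, 0 of the 8 passed, beside 0.0525% (5) of all tested probe sets. Only Trpv1 1370675_at was under an unadjusted p of 0.05, beside 10.7%. The week test depended on the scale. On the deposited scale, where the median probe set fell by 0.43 log2 units between weeks 1 and 3, 5936 of 9520 probe sets passed, and so did 5 members, namely both P2rx3, the Asic3 and both tested Trpv1 probe sets. Their week 3 minus week 1 values on that scale were -0.58 for each P2rx3 probe set, -0.51 for Asic3, and -0.49 and -0.70 for Trpv1 1368313_a_at and 1370675_at. For the difference between groups in change over weeks, 0 members passed, beside 0.00% of all tested probe sets, and 0 were under an unadjusted p of 0.05, beside 4.26%.

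**Figure D3:**
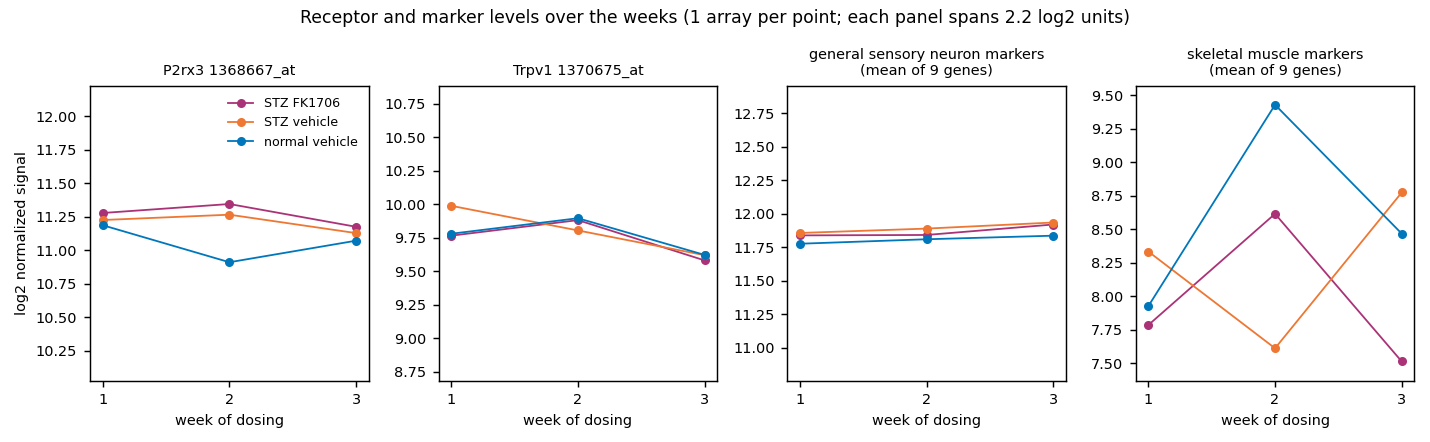
Log2 normalized signal (y axis) by week of dosing (x axis) for P2rx3 1368667_at, Trpv1 1370675_at, the mean of the 9 general sensory neuron markers and the mean of the 9 skeletal muscle markers, with 1 line per group and 1 array per point. Trpv1 is lowest in week 3 in all 3 groups, and the normal pool of week 2 combines the lowest P2rx3 value with the highest muscle mean.

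Mrgprx3, the Mas-related receptor, differed little and changed sign between weeks. Probe set 1371162_at had 8.03, 8.17 and 8.19 in FK1706 pools, 7.91, 8.24 and 8.34 in STZ vehicle pools and 8.16, 8.17 and 7.92 in normal pools. The lowest and the highest of the 9 values both came from STZ vehicle pools. STZ vehicle minus normal was -0.26, 0.07 and 0.42 in weeks 1, 2 and 3, a fit of 0.08 (SE 0.14, limma adjusted p 0.895). Its change per week was 0.34 log2 units larger in STZ vehicle than in normal pools (SE 0.15, p 0.0531, adjusted p 0.999). FK1706 minus STZ vehicle was -0.03 (adjusted p 0.999) and FK1706 minus normal 0.05 (adjusted p 0.944).

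The tested genes around these receptors did not pass between the groups either. Some of them differed by more than any tested member. Of 101 listed genes in 5 groups, 69 were on the array and 34, with 39 probe sets, were tested, and 0 passed in any group comparison. Among receptors and enzymes for ATP and adenosine, 8 of 23 listed genes were tested. P2ry6, a nucleotide receptor, was the 1 of their 9 probe sets under an unadjusted p of 0.05, at 0.37 for FK1706 minus normal (SE 0.17, limma adjusted p 0.608), beside 8.16% overall. By week its difference was 0.00, 0.73 and 0.38. P2rx2, whose product pairs with that of P2rx3, lay below the filter on all 3 of its probe sets. The median of the 9 was -0.02 for FK1706 minus normal, -0.04 for FK1706 minus STZ vehicle and 0.06 for STZ vehicle minus normal. Over all tested probe sets it was 0.00, -0.00 and 0.00. Of the 9, 4, 3 and 8 were higher in these comparisons.

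Among acid receptors and partners of acid-sensing channels, 4 of 12 listed genes were tested and 0 were under an unadjusted p of 0.05 between groups. All 4 of their probe sets were lower with FK1706 than in normal rats, with a median of -0.05. For FK1706 minus STZ vehicle 3 of the 4 were lower, with a median of -0.09, and for STZ vehicle minus normal 2 were, with a median of -0.01. Asic2, a further subunit of these channels, had -0.05 for FK1706 minus normal and -0.07 for FK1706 minus STZ vehicle. Stom, whose protein binds acid-sensing channels, had -0.18 for FK1706 minus STZ vehicle and 0.15 for STZ vehicle minus normal (limma adjusted p 0.999 and 0.710). Of the Mas-related receptors listed beside Mrgprx3, the 2 on the array (Mas1 and Mrgprf) lay below the filter.

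Among channels related to Trpv1, 5 of 23 listed genes were tested, and all 6 of their probe sets were higher with FK1706 than in normal rats, with a median of 0.14. For FK1706 minus STZ vehicle 5 of the 6 were higher, with a median of 0.12, and for STZ vehicle minus normal 4 were, with a median of 0.06. The medians over all tested probe sets were 0.00, -0.00 and 0.00. In these comparisons 1, 0 and 1 of the 6 were under an unadjusted p of 0.05, beside 8.16%, 3.37% and 8.70% of all tested probe sets. On the deposited scale 2 of the 6 were higher with FK1706 than in normal rats, and 5 were when centred on sensory neuron markers. Trpm3, a heat-activated channel of sensory neurons, had 0.35 for FK1706 minus normal (SE 0.14, limma p 0.0266, adjusted p 0.554), with 0.34, 0.39 and 0.31 in weeks 1, 2 and 3. Its mean log2 level was 8.09 ± 0.058 with FK1706, 7.81 ± 0.20 with STZ vehicle and 7.74 ± 0.038 in normal rats (SD, n = 3 each). Trpm7 1369059_at had 0.35 for STZ vehicle minus normal (adjusted p 0.533) and -0.20 for FK1706 minus STZ vehicle (adjusted p 0.999). By week these were 0.75, 0.18 and 0.11, and -0.53, 0.02 and -0.10. The other tested Trpm7 probe set, 1398355_at, had 0.18 and 0.06 in the same comparisons. Trpv2, a relative of Trpv1, had -0.17 for STZ vehicle minus normal and 0.27 for FK1706 minus STZ vehicle (limma adjusted p 0.791 and 0.999). By week these were -0.34, -0.15 and -0.03, and 0.71, 0.08 and 0.03, so both were largest in week 1.

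Receptors and kinases that raise or lower the sensitivity of nociceptors were represented by 17 tested of 28 listed genes. Of their 20 tested probe sets, 10 were higher and 10 lower for FK1706 minus normal. The counts were 11 and 9 for FK1706 minus STZ vehicle, and 8 and 12 for STZ vehicle minus normal. In these comparisons 2, 0 and 2 of the 20 were under an unadjusted p of 0.05, beside 8.16%, 3.37% and 8.70% of all tested probe sets. The cannabinoid receptor gene Cnr1 (1387674_at) had 0.44 for FK1706 minus normal and 0.43 for STZ vehicle minus normal (limma adjusted p 0.587 and 0.543). By week these were 0.08, 0.28 and 0.96, and 0.25, 0.24 and 0.81. The other tested Cnr1 probe set, 1369677_at, had 0.12 and 0.22 in the same comparisons. Cdk5, a kinase that phosphorylates Trpv1, had 0.17 and 0.18 in the same comparisons. Ptger3, a prostaglandin E receptor gene, had 0.28 for FK1706 minus STZ vehicle and -0.34 for STZ vehicle minus normal (limma adjusted p 0.999 and 0.587). By week these were 0.09, 0.61 and 0.13, and -0.11, -0.33 and -0.59. FK1706 minus normal shares its arrays with both other comparisons, so these values are not independent of one another. FK1706 minus STZ vehicle and STZ vehicle minus normal also share the STZ vehicle arrays, with opposite signs. Opposite values in that pair, for genes of any list, are therefore not independent either.

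**Figure D4:**
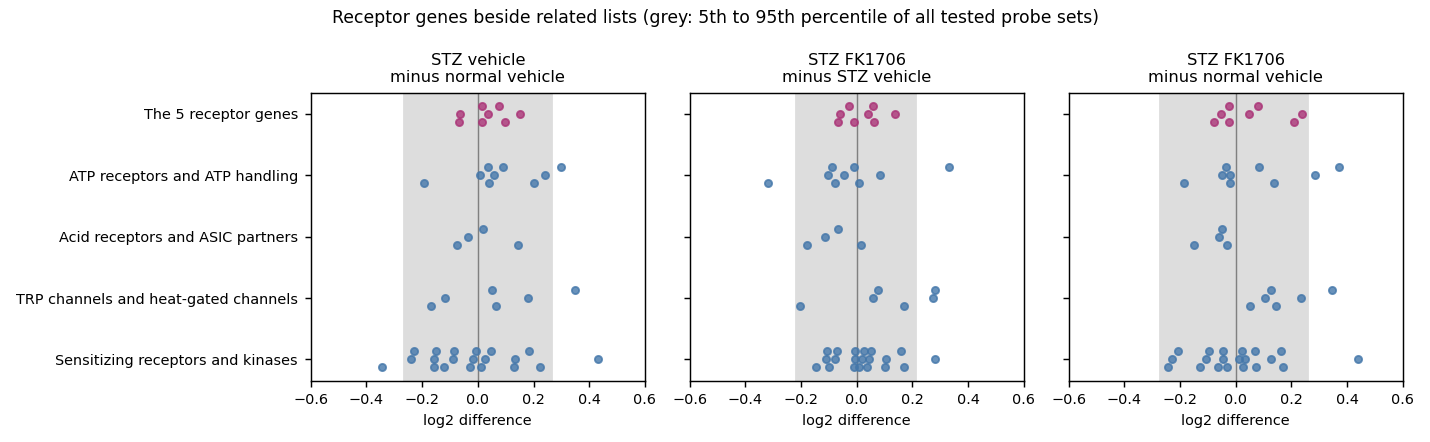
Log2 difference (x axis) of each tested probe set of the 5 receptor genes, in purple, and of 4 related gene lists, in blue, in the 3 comparisons. The grey band spans the middle 90% of all tested probe sets. The receptor probe sets all lie inside the band, and points of Trpm3, P2ry6, Adora1 and Cnr1 lie outside it in STZ FK1706 minus normal.

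The probe sets most like each member over the 9 arrays belonged to different genes for each. The search took Pearson r over these arrays among the tested probe sets of other genes that carry 1 gene symbol. P2rx3 1368667_at was closest to Lypla1 at 0.96, Smad1 at 0.95 and Pja2 at 0.92. P2rx3 1388077_a_at was closest to Gca at 0.93, Cryz at 0.90 and Bbs2 at 0.89. Asic3 was closest to Vps11 at 0.95, and to Lamtor2 and Col8a2 at 0.94. The leading genes for Asic1 were Oasl, Triobp and Ppp6r2 for 1371045_at, at 0.96, 0.96 and 0.95, and Ube3b, Usp9x and Il3ra for 1388078_a_at, each at 0.92. Trpv1 1370675_at was closest to Akap8l at 0.98, Uxs1 at 0.95 and Bmpr2 at 0.94, and 1368313_a_at to Slc38a10 at 0.97, Unkl at 0.96 and Mzt1 at 0.95. Mrgprx3 was closest to Rwdd4 at 0.97, and to Vps72 and Btbd2 at 0.94. None of these genes was shared, even between probe sets of the same receptor gene, and the values are the highest of all probe sets searched over only 9 points.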

How the data were processed

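Lumbar DRG RNA, pooled from 5 rats per array, was measured on Affymetrix rat arrays of 15923 probe sets, 57 of them controls. Per the submitters' processing notes, the authors made the deposited signal intensity with MAS5; no version is given in the sources used here. Of the 15866 other probe sets, 12783 had 1 gene symbol, 312 several and 2771 none. Entrez identifiers matched 12748 of the first kind to the GRCr8 gene table and changed 0 symbols.

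An offset of 18.7 units (the 10th percentile) was added, and log2 values were quantile normalized. On the deposited scale, without this normalization, the median probe set differed by -0.17 for STZ FK1706 minus normal, -0.07 for STZ FK1706 minus STZ vehicle and -0.10 for STZ vehicle minus normal. Probe sets whose mean reached the 40th percentile were tested with limma 3.58.1 in R 4.3.3 (lmFit, eBayes with a trend). Group and week were factors, leaving 4 residual degrees of freedom. Slopes over the weeks were compared in a model giving each group its own linear term, which left 2. The p-values of single contrasts were two-sided, and the F test over the weeks and the difference between groups in slopes used moderated F tests. Adjustment in the main fit was by Benjamini-Hochberg over 9520 probe sets with a threshold of 0.05. The p of Trpv1 1370685_at, from a fit without the filter, was not adjusted. All p-values rest on spread between pools, not rats, and no group had replicate pools within a week. In the model with group and week, this spread therefore includes any real difference between groups in their course over the weeks. In the slope model it includes any such difference that is not linear. The model of the group comparisons was checked on simulated independent noise that held no week effect. The week test and the slope model were not checked in this way.

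Week is the label that numbers the replicates, and it entered as a block because each group was sampled once in each week. Deviations from the group means correlated between same-week arrays with r from -0.00 to 0.32.

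The members and gene lists were chosen with earlier results of these data known. Named genes are all member probe sets, up to 3 per list and comparison with the largest moderated t, and the 3 most correlated with each tested member. P2rx2 was named after its values were seen. Alternatives covered normalization, offset, filter, probe sets per gene, variance prior, week and arrays left out. The number of arrays limits the precision. No genome build is named in the files, so no coordinates are given.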

Additional observations from a re-analysis of the deposited data

How the results depend on the processing

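Between the groups, 0 of the tested members passed under all 22 alternatives for each comparison, and 0 passed the difference of slopes under all 18. In the week test 0 passed, except 5 on the deposited scale. Over the 24 member differences the smallest adjusted p by limma was 0.116, for Asic3 in STZ FK1706 minus normal on the deposited scale. Without the replicate block (week left out), 0 members passed and P2rx3 1368667_at had an adjusted p of 0.718 for STZ FK1706 minus normal and 0.727 for STZ vehicle minus normal; the count over all probe sets for STZ vehicle minus normal was then 1 instead of 6. Over all alternatives that count ran from 0 to 13, and for STZ FK1706 minus normal from 0 to 89, with 89 on the deposited scale. In the week test it was 5, with a range of 0 to 5936 (5936 on the deposited scale), and for the difference of slopes it was 0, with a range of 0 to 85 (85 without the STZ vehicle array of week 1). List genes passed in no group comparison under any alternative, but 17 of their probe sets passed the week test on the deposited scale, and 1 passed the difference of slopes without that array.

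Of the 24 differences, 6 kept their sign throughout. These were P2rx3 1368667_at and Asic3 against normal in both STZ groups, Asic1 1388078_a_at in STZ FK1706 minus normal, and Trpv1 1368313_a_at in STZ FK1706 minus STZ vehicle. The other 18 turned under at least 1 alternative. On the deposited scale, STZ FK1706 minus normal became -0.10 for P2rx3 1388077_a_at and -0.13 for Mrgprx3. The FK1706 difference from STZ vehicle became -0.023 for P2rx3 1368667_at, -0.010 for 1388077_a_at and -0.015 for Asic1 1371045_at. The STZ vehicle difference from normal became -0.091 for P2rx3 1388077_a_at, -0.0045 for Asic1 1388078_a_at, -0.093 and -0.075 for Trpv1 1368313_a_at and 1370675_at, and -0.038 for Mrgprx3. Centred on sensory neuron markers, chosen after the data had been seen, STZ FK1706 minus normal became -0.011 for Mrgprx3 and STZ FK1706 minus STZ vehicle 0.016 for Asic3. The STZ vehicle difference from normal became -0.070 for P2rx3 1388077_a_at, -0.071 and -0.048 for Trpv1 1368313_a_at and 1370675_at, and -0.0087 for Mrgprx3.

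With 1 array or week left out, STZ FK1706 minus normal ran from -0.11 to 0.11 for Asic1 1371045_at, from -0.15 to 0.0095 for Trpv1 1368313_a_at, from -0.068 to 0.015 for 1370675_at and from -0.093 to 0.18 for Mrgprx3. STZ FK1706 minus STZ vehicle ran from -0.0010 to 0.11 for P2rx3 1368667_at, from -0.079 to 0.15 for Asic1 1371045_at and from -0.043 to 0.29 for 1388078_a_at. It ran from -0.095 to 0.058 for Asic3, from -0.13 to 0.020 for Trpv1 1370675_at and from -0.15 to 0.087 for Mrgprx3. The range of STZ vehicle minus normal was -0.017 to 0.058 for P2rx3 1388077_a_at, -0.20 to 0.10 for Asic1 1371045_at, -0.080 to 0.085 for Trpv1 1368313_a_at, -0.047 to 0.11 for 1370675_at and -0.096 to 0.24 for Mrgprx3. With 3 pools per group, changes that lie within the intervals given were not excluded. The intervals are not adjusted for the number of probe sets, so larger changes could also fail to pass. P2rx3 1368667_at in STZ FK1706 minus normal, at 0.21 with an interval of 0.03 to 0.39, had a limma adjusted p of 0.551.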
